A study of Mus musculus with 6 samples.

Results

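The genes described here are those of the cytosolic ribosomal proteins, the proteins that form the small and large subunits of the ribosome together with ribosomal RNA, and the retrogene Rps27rt. They were taken by symbol: Rps or Rpl followed by a digit, or Rplp0, Rplp1 and Rplp2, without the S6 kinases and without entries marked as pseudogenes by "-ps" in the symbol. This gave 88 of the 17987 genes in the table, of which 36 had an Rps symbol, 49 an Rpl symbol with a number, and 3 belonged to the P stalk. The symbol rule itself uses no measured value, but it was set, and Rps27rt named in it, with earlier results of these data known. Of the 88, 87 passed the filter on low values, the exception being Rpl6l, a processed pseudogene in the annotation. By type, 76 encode core subunits, 11 are paralogs, retrogenes or other copies of a core gene, and Rps19bp1 is named after a binding partner of Rps19 and is not itself a ribosomal protein. Among the copies, Rpl37rt and Rps4l are annotated as transcribed processed pseudogenes, and Rpl32l, Rps3a2 and Rps3a3, like Rpl6l, as processed pseudogenes.

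RNA was sequenced from lung tumors of 6 doxycycline-fed mice carrying Scgb1a1-rtTA and inducible EGFRL858R, a tumor-driving mutant of the EGF receptor. Expression of the transgene depends on the promoter of Scgb1a1, which is active in club cells of the airway. The 3 mice labelled Dox_WT had wild-type Usp24 (Usp24WT), and the 3 labelled Dox_KO carried Usp24C1695A, a mutation in the catalytic site of this deubiquitinase and not a deletion of the gene, so gene counts cannot show whether the allele was present. Every mouse received doxycycline at 0.5 g/l for 10 weeks, and the ages and sexes were not labelled. The protocol text attached to all 6 samples names the mutant allele, so mice were assigned to groups by the sample titles. The titles give only Dox_WT or Dox_KO, and the name of the allele was taken from the sample labels. Mice are named here by number: M1354, M1364 and M1370 were Usp24WT, and M134, M145 and M164 were Usp24C1695A.

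Each ribosomal protein is a stoichiometric part of the particle, and cells keep the mRNAs of the whole set at high and roughly matched levels. Many of these mRNAs begin with a 5' terminal oligopyrimidine (TOP) tract, a C followed by a run of C and T bases, through which mTOR signaling controls their translation. Mammalian genomes also hold large numbers of retrocopies, intronless copies of spliced ribosomal protein mRNAs inserted elsewhere. Most are pseudogenes, and Rps27rt is annotated as a protein-coding retrogene of Rps27, whose product is a zinc finger protein of the small subunit.

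Rps27rt is shown first because its sequence bears on every value given for it. In the GENCODE annotation of GRCm38 it is a single exon at chr9:114982366-114982739 on the minus strand, inside the span of Osbpl10 on the plus strand, and 0 of 26 annotated Osbpl10 exons overlap it. Its coding sequence of 255 bases differs from that of spliced Rps27 at 0 positions. It is printed with 4 bases in capitals on either side of each of the 3 places where Rps27 has an intron and the retrogene has none.
Rps27rt, chr9:114982453-114982707, minus strand: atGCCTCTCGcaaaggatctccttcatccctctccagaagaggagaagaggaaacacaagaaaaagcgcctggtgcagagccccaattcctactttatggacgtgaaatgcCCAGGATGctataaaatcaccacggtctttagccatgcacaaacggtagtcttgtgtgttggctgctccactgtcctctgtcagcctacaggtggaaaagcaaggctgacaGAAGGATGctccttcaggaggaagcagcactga

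The identity went beyond the coding sequence. Bases 1 to 341 of the 374-base Rps27rt transcript occurred without a mismatch in a spliced Rps27 transcript, and the transcript ended in 31 encoded A bases. Of the 225 windows of 150 bases, the length of 1 sequenced read, that fit in the Rps27rt transcript, 196 (87.1%) were also present in an Rps27 transcript. A read from those windows cannot be assigned to either gene by its letters, and how the authors' counting treated such reads is not given in the sources used here. The other windows reach past base 341, toward the 31 A bases at the end. Whether reads from them can be assigned was not tested. Rps27l, the other paralog of Rps27, differed from it at 61 of 255 coding positions (76.1% identity) and shared 0 windows of 150 bases with it. The pair is printed to show how evenly these differences, in capitals, are spread.
Rps27, chr3:90212725-90213615, minus strand, spliced: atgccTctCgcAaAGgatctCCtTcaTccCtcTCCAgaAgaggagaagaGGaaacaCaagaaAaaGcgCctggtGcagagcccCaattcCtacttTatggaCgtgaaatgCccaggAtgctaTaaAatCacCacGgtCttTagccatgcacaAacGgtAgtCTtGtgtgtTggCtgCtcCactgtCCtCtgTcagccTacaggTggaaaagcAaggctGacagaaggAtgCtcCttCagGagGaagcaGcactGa
Rps27l, chr9:66946175-66949357, plus strand, spliced: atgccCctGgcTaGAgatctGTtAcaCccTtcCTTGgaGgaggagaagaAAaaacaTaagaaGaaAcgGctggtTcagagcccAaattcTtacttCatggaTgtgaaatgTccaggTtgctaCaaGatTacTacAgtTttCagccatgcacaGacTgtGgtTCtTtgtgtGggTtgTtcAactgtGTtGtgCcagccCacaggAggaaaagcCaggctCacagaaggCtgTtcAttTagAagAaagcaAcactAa

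The genes part at the start site. The RefSeq windows of GRCm38.p6 run from 250 bases before to 50 after the annotated start. Only 66 of the 250 upstream positions (26.4%) held the same base. The longest shared run was 38 bases, beginning at the first base of Rps27rt and the second of Rps27. These windows are genomic and Rps27 has introns, so this run does not measure the identity of the transcripts, given above. Positions -60 to 20 are printed with this run in capitals, as far as it falls in the stretch shown.
Rps27, chr3:90213629-90213708, minus strand: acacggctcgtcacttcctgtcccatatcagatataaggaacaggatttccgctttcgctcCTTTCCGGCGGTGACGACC
Rps27rt, chr9:114982720-114982799, minus strand: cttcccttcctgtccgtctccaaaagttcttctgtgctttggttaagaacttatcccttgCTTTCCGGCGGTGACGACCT

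Rps27rt had the lowest p of the 87 genes tested. Its normalized read count, the number of reads divided by 1 scaling factor per library, was 177 in M1354, 213 in M1364 and 146 in M1370, and 299 in M134, 409 in M145 and 343 in M164. All 3 Usp24C1695A mice were above all 3 Usp24WT mice, with means of 350.0 ± 55.2 against 178 ± 33.7 (SD, n = 3 each). The log2 fold change on the scale of log2(value + 1) was 0.97 ± 0.23 (SE), with an unadjusted p of 0.00286 and an adjusted p of 0.738 in limma, so the difference did not pass the threshold of 0.05 after adjustment over the 16640 genes tested. On the whole reads, edgeR gave an adjusted p of 0.696 and DESeq2 an adjusted p of 0.0721. The exact two-sided permutation test of the 6 values gave p = 0.1, the smallest value that 3 mice against 3 can give.

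Rps27, the parent gene, did not show this order. Its normalized count was 2237 in M1354, 2453 in M1364, 2078 in M1370, 2738 in M134, 3542 in M145 and 1299 in M164. M134 and M145 were above and M164 was below every Usp24WT mouse, and the log2 fold change was 0.05 ± 0.34 (SE). Rps27l, which is known as a target of p53, ranged from 1536 to 1755 in Usp24WT and from 1586 to 1753 in Usp24C1695A mice, with a log2 fold change of 0.05 ± 0.16 (SE). The values of Rps27l overlapped between groups and varied less between mice than those of the other two.

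**Figure D1:**
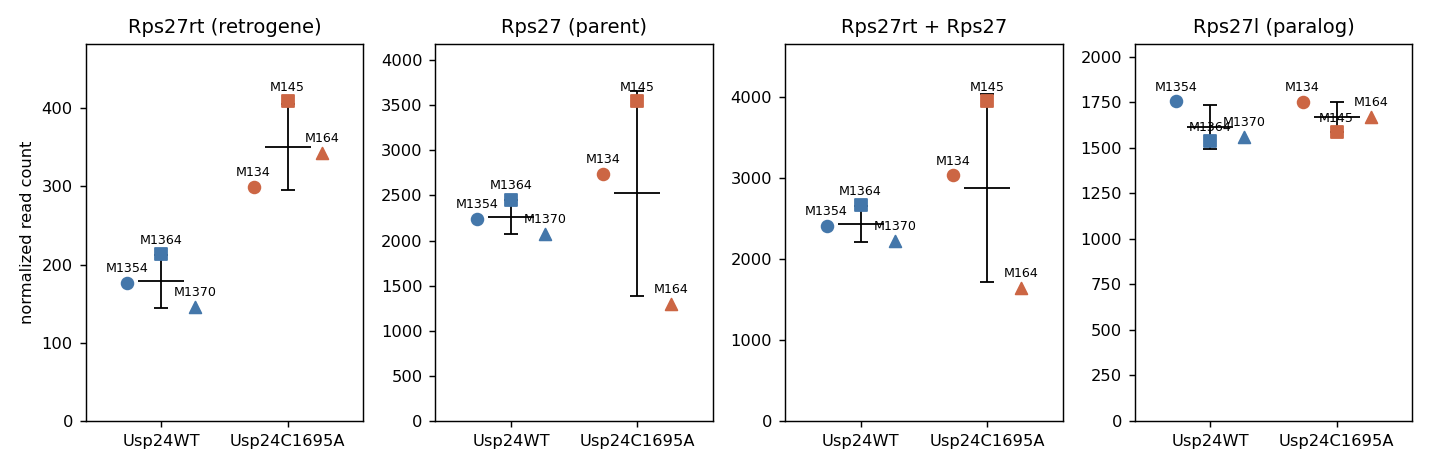
Normalized read counts of Rps27rt, Rps27, their sum and Rps27l in each mouse, grouped by Usp24 allele, with the mean and SD of each group as bars. The 3 Usp24C1695A mice lie between 299 and 409 for Rps27rt, above the Usp24WT mice at 146 to 213, while the groups overlap in the other 3 panels.

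Because the transcripts are nearly the same, the values of both were also summed. The sum of Rps27rt and Rps27 was 2434 ± 222 in Usp24WT and 2876 ± 1163 in Usp24C1695A mice (SD, n = 3 each), from 1641 in M164 to 3950.2 in M145, and the groups overlapped. The summed feature had a log2 fold change of 0.15 with an adjusted p of 0.899 in limma. This fit was added after the sequences had been compared.

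The share of the pair's reads that was assigned to Rps27rt was higher in every Usp24C1695A mouse. It was 7.31% of 2324 reads in M1354, 7.99% of 1852 in M1364 and 6.55% of 2365 in M1370, and 9.85% of 2996 in M134, 10.3% of 3993 in M145 and 20.9% of 829 in M164. The 95% Wilson intervals, which cover counting error only, reached up to 9.32% in the highest Usp24WT mouse and down to 8.83% in the lowest Usp24C1695A mouse, so those intervals overlapped. The means were 7.29% ± 0.72 and 13.7% ± 6.2 (SD, n = 3 each). The exact two-sided permutation p was 0.1, and 0.99 after adjustment over the 11 pairs of copy and parent examined. Without M164, the mouse with the fewest reads, the mean of the Usp24C1695A group was 10.1%.

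**Figure D2:**
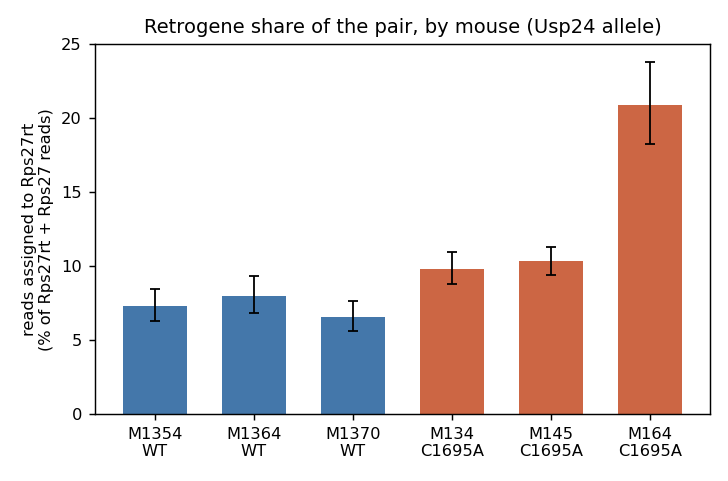
Reads assigned to Rps27rt as a percentage of the reads assigned to Rps27rt or Rps27, in each mouse, with 95% Wilson intervals as error bars. The Usp24WT mice lie at 6.55% to 7.99%, M134 and M145 at 9.85% and 10.3%, and M164 at 20.9%.

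In the other 10 pairs the exact two-sided p for the share of the copy was 0.2 or higher. Rps27l took 38.5% to 44.0% of its pair with Rps27 in Usp24WT mice and 39.0%, 30.9% and 56.3% in M134, M145 and M164. The share of Rps27l was thus also highest in M164, where Rps27 had 656 reads against 1704 to 3580 in the other mice. Rpl37rt, a copy of Rpl37 annotated as a transcribed processed pseudogene, had 20.1% of its 150-base windows in Rpl37. It took 6.08% ± 1.13 of the reads of Rpl37rt and Rpl37 in Usp24WT and 6.32% ± 2.12 in Usp24C1695A mice (SD, n = 3 each). Rpl22l1, the paralog of Rpl22, took 19.3% ± 1.5 and 17.4% ± 9.3. Its low value of 6.70% came from M164, where Rpl22l1 stood at 253 against 505 to 901 in the other 5 mice. Rpl7l1 took 8.86% ± 1.46 of its pair with Rpl7 in Usp24WT and 6.91% ± 0.80 in Usp24C1695A mice, ranges that overlapped.

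The remaining copies were low. The normalized counts of Rpl36al were between 7.92 and 21.8, those of Rpl32l between 3.76 and 21.6 and those of Rpl6l between 2.82 and 11.2. Rps4l, at 67.9 to 124, and Rps3a2 and Rps3a3, both at or below 34.5, were added to the copies after their values had been seen, since their symbols do not follow that of the parent. Rps3a2 and Rpl6l shared 36.4% and 33.2% of their 150-base windows with Rps3a1 and Rpl6, and counts of such copies are uncertain for the same reason as those of Rps27rt. Rps19bp1 was at 62.3 and 64.9 in M1354 and M1370, was highest in M1364, and ranged from 52.4 to 80.1 in Usp24C1695A mice, with overlap.

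Genes around Rps27rt were examined to see whether the locus moved as a whole. Osbpl10, whose span contains the retrogene, was at 141, 118 and 139 in Usp24WT and 87.2, 128 and 61.4 in Usp24C1695A mice, a log2 fold change of -0.58 ± 0.32 (SE) with an adjusted p of 0.738 in limma. The 5 nearest tested genes on each side lay 48.4 kb (Gpd1l) to 2270 kb (Gm17396) away. Their log2 fold changes ran from -0.54 (Tgfbr2, a TGF-beta receptor) to 0.93 (Gm9385, 1058 kb away, limma unadjusted p = 0.0370). None had an adjusted p under 0.738, which was also that of Rps27rt. The adjacent Gpd1l had a log2 fold change of 0.31 and Stt3b, an oligosaccharyltransferase subunit, one of 0.01. Whether reads were counted by strand is not given in the sources used here, so reads from Rps27rt cannot be told apart from reads of the Osbpl10 intron on the opposite strand.

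Across the whole set, no ribosomal protein gene passed the threshold in limma (0 of 87, against 0% of all genes tested), and none did in edgeR (0 of 87, against 0%) or DESeq2 (0 of 87, against 0.221%). At an unadjusted p under 0.05, limma gave 2 higher genes, Rps27rt and Rpl30, against 2.61% of all genes, and 0 lower genes, against 2.93%. The edgeR and DESeq2 tests each gave the same 4 at that level, all higher: Rps27rt, Rpl30, Rps24 and Rpl35. These were 4.60% of the 87, close to or under the shares of all genes that were higher at that level, 4.66% in edgeR and 5.47% in DESeq2. In 12 of the 88 all Usp24C1695A values lay above all Usp24WT values, against 5.07% of all genes tested, and in 0 they lay below, against 6.03%.

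The fold changes were small and mostly positive. Of 87 tested genes, 74 had a log2 fold change above 0, against 48.3% of all genes, and the median was 0.18, against -0.02 over all genes. The 30 small subunit genes had a median of 0.17 with 28 above 0, and the 43 large subunit genes a median of 0.19 with 39 above 0. In the P stalk 2 of 3 were above 0. The 10 tested copies differed in this, with 5 above 0 and a median of 0.02. The median rested on 1 mouse in either direction: without M145 it was 0.05, and without M164 it was 0.29, with 83 of 87 above 0.

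**Figure D3:**
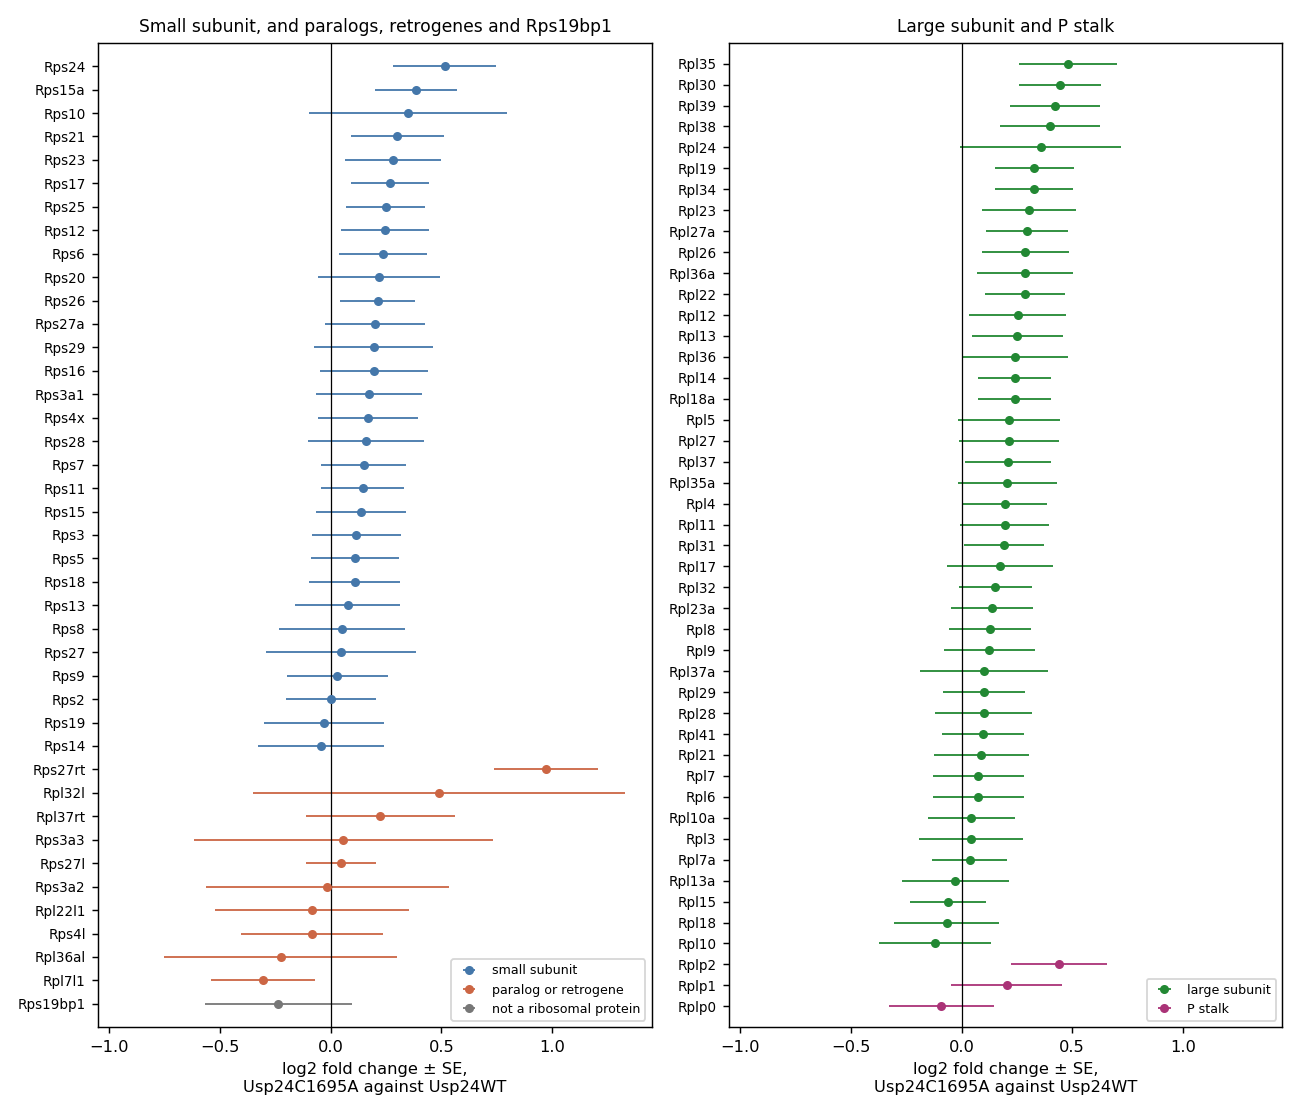
Log2 fold change (Usp24C1695A against Usp24WT, with SE from limma as bars) of the 87 tested genes, by subunit and sorted by size. Rps27rt, at 0.97, is the farthest from 0, most core genes lie between 0 and 0.5, and the copies are scattered on both sides of 0.

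In the small subunit, Rps24 had the largest log2 fold change and Rps14 the lowest, at -0.05. Rps24, a subunit protein needed for rRNA processing, was at 9917, 11036 and 8066 in Usp24WT and 11402, 14708 and 15344 in Usp24C1695A mice, with no overlap, and its log2 fold change was 0.51 ± 0.23 (SE; limma unadjusted p = 0.0548, adjusted p = 0.738). Rps15a had no overlap either, at 2614 to 3109 and 3423 to 4517, and a log2 fold change of 0.39. Rps6, the classical substrate of the S6 kinases, was at 8476 to 10107 and at 10395 to 11693. The Rps6 groups also did not overlap, although M134 was only just above M1364, and the log2 fold change was 0.24 ± 0.20 (SE).

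Several small subunit proteins are known for roles outside the body of the particle. Rps27a, made as a fusion with ubiquitin, ranged from 4718 to 5380.4 in Usp24WT and from 4546 to 7617 in Usp24C1695A mice. Rps10, Rps20 and Rps3, which in mammalian cells are ubiquitinated when ribosomes stall or collide, had log2 fold changes of 0.35 ± 0.45, 0.22 ± 0.28 and 0.12 ± 0.20 (SE). Rps10 had 24.4 to 78.2 normalized counts, far under the other core genes of the small subunit. Rps14, linked in human to the anemia of the 5q deletion, was at 4569 to 5169 in Usp24WT mice, at 5706 and 6377 in M134 and M145 and at 3039 in M164. The log2 fold change of Rps26, at the mRNA exit channel, was 0.21 ± 0.17 (SE), and its ranges of 2280.0 to 2534 and 2411 to 2936 overlapped.

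In the large subunit, Rpl30 was at 3144, 2883 and 2684 in Usp24WT and 3291, 4384 and 4253 in Usp24C1695A mice. The lowest mutant value was only just above the highest wild-type one, and the log2 fold change was 0.44 ± 0.19 (SE; limma unadjusted p = 0.0426, adjusted p = 0.738). Rpl35, which sits near the exit of the peptide tunnel, was at 2463, 2463 and 1956 and at 2571, 3006 and 4172, a log2 fold change of 0.48 ± 0.22 (SE). Its highest value was that of M164, and without M164 the log2 fold change was 0.29. For Rpl39, a small protein lining the tunnel, the log2 fold change was 0.42 ± 0.20 (SE), with M1364 at 2463 above M164 at 2389.7, so the groups overlapped.

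Rpl5 and Rpl11, which bind the 5S rRNA and, when free, the p53 regulator Mdm2, had log2 fold changes of 0.22 ± 0.23 and 0.19 ± 0.20 (SE). Rpl5 was at 6984 in M1364 and 9600 to 10208 in the other Usp24WT mice, against 9479 to 11845 in Usp24C1695A mice. Rpl22, required for alpha-beta T cell development in mice, was at 2226 to 2696 and 2671 to 3530.2, with a log2 fold change of 0.29 ± 0.18 (SE). For Rpl38, which in mouse embryos affects translation of Hox mRNAs, it was 0.40 ± 0.23 (SE), and its ranges of 1070 to 1804 and 1604 to 1986 overlapped. Rpl41, among the shortest of all the proteins, was at 3204 to 3676 and 3065 to 3999.

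The lowest log2 fold changes by p were those of Rpl7l1, -0.31 ± 0.23, Rps19bp1, -0.24 ± 0.33, Rpl10, -0.12 ± 0.25, Rpl36al, -0.23 ± 0.53, Rplp0, -0.09 ± 0.24, and Rpl15, -0.06 ± 0.17 (SE). None had an unadjusted p under 0.227 in limma. Rpl10, which joins the large subunit late and contacts the P site tRNA, was at 8521 to 9688 in Usp24WT mice, at 10019 and 10033 in M134 and M145 and at 5959 in M164. Rplp0 and Rpl15 turned positive, at 0.03 and 0.06, under quantile normalization and, at 0.02 and 0.05, when scaled to reads outside the mitochondrial transcripts.

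The P stalk recruits the elongation factors, with Rplp0 as the base that holds Rplp1 and Rplp2. Rplp2 was at 785, 1159 and 756 in Usp24WT and 1025, 1274 and 1319 in Usp24C1695A mice, a log2 fold change of 0.44 ± 0.22 (SE), with M1364 inside the mutant range. Rplp1 was at 823, 1008 and 895 and at 1232, 1294 and 711, and Rplp0 at 3933, 3027 and 3702 and at 3611, 4156 and 2433. M164 was the highest of the 6 for Rplp2 and the lowest for Rplp0 and Rplp1.

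The 5 genes with the highest mean count were Rps3a1 at 15222, Rpl21 at 12357, Rps24 at 11746, Rps6 at 10354 and Rpl7 at 10077. Of these, Rps24 and Rps6 did not overlap between groups and Rps3a1, Rpl21 and Rpl7, with log2 fold changes of 0.17, 0.09 and 0.08, did. Per kilobase of annotated exon, Rps3a1 stood at 15581 and Rps6 at 6528, while Rpl24 at 36.1, Rps10 at 21.9 and Rpl13a at 117 were the 3 lowest of the core. The exon length used joins all annotated exons of a gene, 2311 bases for Rps10 and 2114 for Rpl13a, and is not that of its mRNA. Rpl24 and Rpl13a were singled out after their values were seen, and these low counts were found in all 6 mice. Whether reads of these genes were lost in counting was not tested, so the counts need not reflect the mRNA levels.

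Mice of one group differed from each other. For the 76 core genes, the median log2 difference from the mean of the Usp24WT mice was 0.02 in M1354, 0.11 in M1364 and -0.14 in M1370, and 0.20 in M134, 0.39 in M145 and -0.09 in M164. M145 was thus high as a set, with 72 of 76 genes above every Usp24WT mouse, against 20.6% of all genes tested. M134 had 47 of 76 above every Usp24WT mouse, against 23.0% of all genes, and 0 below. M145 also had 0 below.

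M164 did not move as a set. It had 17 of 76 core genes above and 31 below every Usp24WT mouse, where 33.5% and 35.6% of all genes were above and below. The SD of the difference over the 76 genes was 0.33 in M164, against 0.11 in M134, 0.15 in M145 and 0.10 to 0.18 in the Usp24WT mice. It ran from -0.79 for Rps27 to 0.87 for Rpl35. Among genes chosen after their values were seen, Rps19 (845 against 1209 to 1481) and Rpl18 (1123 against 1607 to 1745) were low, and Rpl19 (6910 against 4676 to 5386) was high in M164. Without M164, 46 of the 76 were above every Usp24WT mouse, against 7.79% of all genes, where all 3 mutant mice gave 11, against 5.07%.

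**Figure D4:**
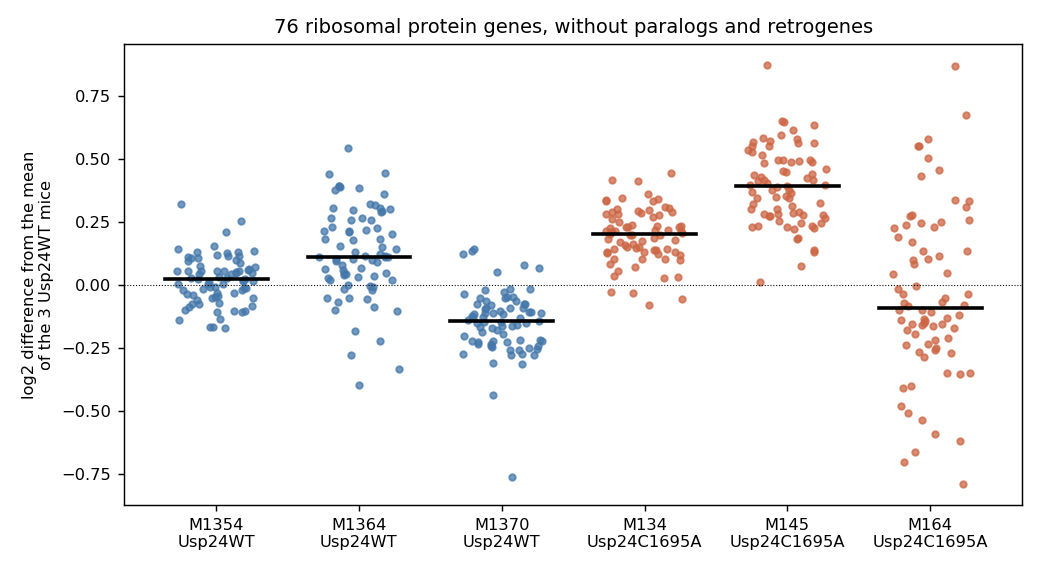
Log2 difference of each of the 76 core genes (points) from the mean of the 3 Usp24WT mice, by mouse, with the median as a black line. M145 is shifted upward with a median of 0.39, M134 with 0.20, and M164 spreads from -0.79 to 0.87 around a median of -0.09.

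Other measures moved with these mice, and their part in the ribosomal protein values was not tested. Library totals were 8950184 to 14650273 reads in Usp24WT and 7167000 to 12516561 in Usp24C1695A mice, the lowest being M164, where mitochondrial transcripts took 17.2% of reads against 1.74% to 3.10% in the others. Summed normalized counts of 10 B cell markers were 553 to 642 in Usp24WT mice and 481, 19242 and 47674 in M134, M145 and M164. Those of 10 T cell markers were 326 to 581 and 467, 2183 and 927, and those of the 6 fat markers in the table were 510.4 to 656 and 704, 11486 and 190735. The 7 heart muscle markers summed to 155 to 266 and to 952, 510.5 and 5821, and the 1 skeletal muscle marker in the table was at 6767 in M164 and at 1.44 to 7.91 in the other mice. Y-linked genes summed to 0 in M1364 and M1370 and to 3259 to 3554 in the other 4 mice, so the sexes were unevenly split between groups. The 8 markers of alveolar type 2 cells were present in all mice and summed to 547177 to 622184 in Usp24WT mice and to 485869, 499356 and 172546, and the 4 club cell markers to 20940.5 to 41115 and 39346 to 87608. A change in the RNA of a cell type and a change in the number of its cells cannot be told apart in bulk tumor tissue.

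The summed share of reads gave the same order of mice. The 88 genes took 2.30%, 2.40% and 1.96% of reads in Usp24WT and 2.64%, 3.04% and 2.05% in M134, M145 and M164, with means of 2.22% and 2.58%. M164 lay inside the Usp24WT range. Of reads outside the mitochondrial transcripts the share was 1.99% to 2.47% in Usp24WT mice and 2.71%, 3.14% and 2.47% in the mutants, so that M164 was level with M1364.

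Gene length moved with the contrast over the whole table. All tested genes with under 1000 bases of annotated exon had a median log2 fold change of 0.23 (1132 genes), against 0.10 from 1000 to 2000, 0.02 from 2000 to 4000 and -0.08 at 4000 and above. In the same bins the ribosomal protein genes had medians of 0.17 (17 genes), 0.19 (35), 0.15 (29) and 0.17 (6). Length here joins all annotated exons of a gene, which gave 6256 bases for Rps24 and 6270 for Rps15a, and can exceed that of its mRNA. The bins therefore do not match genes by mRNA length. The part of length in the ribosomal protein values was not tested further.

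The sequence at the start site was read for the genes with a RefSeq promoter window, 64 of the 88. A TOP start meant a C within 5 bases of the annotated start, followed by at least 4 C or T bases on the sense strand. It was found in 31 (48.4%), against 21.2% of 27025 genes, and exactly at the start in 15 (23.4%), against 3.01%. Windows of 40 bases, 20 on each side of the start, are printed for genes that M164 had high (Rps24, Rpl35, Rpl19) and low (Rps19, Rpl18, Rplp0), with the C and its run in capitals. These genes were picked by their values in M164, and whether a TOP start goes with the level in M164 was not tested. Rps27, with the lowest log2 difference of the core in M164 (-0.79), also had a TOP start. Where a gene had several windows, it counted if any held such a run, and that window was printed. Annotated starts can be off by some bases, and a window with no capitals shows only that no such run lies there.
Rps24, chr14:24490658-24490697, plus strand: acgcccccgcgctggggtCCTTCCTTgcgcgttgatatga
Rpl35, chr2:39005112-39005151, minus strand: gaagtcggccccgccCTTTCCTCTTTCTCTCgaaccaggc
Rpl19, chr11:98026690-98026729, plus strand: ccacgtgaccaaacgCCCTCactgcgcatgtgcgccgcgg
Rps19, chr7:24884572-24884611, plus strand: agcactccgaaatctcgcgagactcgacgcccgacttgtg
Rpl18, chr7:45718051-45718090, plus strand: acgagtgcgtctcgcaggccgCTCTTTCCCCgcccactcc
Rplp0, chr5:115559447-115559486, plus strand: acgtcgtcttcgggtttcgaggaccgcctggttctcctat

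Other genes of the pathway were described by the same counts, and 0 passed the threshold in limma in any of these lists. Over all genes tested, 48.3% had a log2 fold change above 0 and the median was -0.02. Of the ribosomal proteins and partners with other symbols, Rpsa and Fau had log2 fold changes of 0.37 and 0.42, and Rack1, a scaffold on the small subunit, had one of -0.08. Among 19 further TOP mRNAs, such as those of elongation factors, 12 were above 0 with a median of 0.12. The median of 36 ribosome biogenesis genes, including nucleolar factors and RNA polymerase I subunits, was -0.04 with 16 above 0, and that of 14 genes of mTOR signaling and ribosomal protein control was -0.03 with 4 above 0.

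Of 10 tested genes of ribosome quality control, 1 was above 0, against 48.3% of all genes, and the median was -0.17, against -0.02 over all genes. The list was chosen with earlier results of these data known and was not tested as a set. Usp10, a deubiquitinase that acts on ribosomal proteins of stalled ribosomes, was at 692, 718 and 855 in Usp24WT and 484, 624 and 451 in Usp24C1695A mice, with no overlap, and its log2 fold change was -0.55 ± 0.20 (SE; limma unadjusted p = 0.0228, adjusted p = 0.738). Pelo, which splits stalled ribosomes, also did not overlap, at 30.1 to 32.9 and 22.3 to 27.7. Usp10 and Pelo were 2 of the 10, where 6.03% of all genes tested lay lower without overlap. Of 5 ribosomal protein chaperones 2 were above 0. Aamp was at 709.6 to 864 in Usp24WT and at 489 to 679 in Usp24C1695A mice, so each mutant mouse was lower than every Usp24WT mouse.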

How the data were processed

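Total RNA from lung tumors (3 µg per sample) was sequenced by the authors as 150-base paired reads, and the submitters' processing notes list the aligner HISAT2 (version 2.1.0) and the mouse build mm39. The read counter, the annotation and the strand setting are not given in the sources used here. The authors deposited 1 table of normalized read counts (signal), in which each library is divided by 1 factor. Whole reads were recovered by undoing that factor (100% of values within 1e-06 of a whole number, though in M145 the factor is close to 1).

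Values were fitted as log2(value + 1) with limma 3.58.1 (trend) in R 4.3.3, over 16640 genes with at least 10 in at least 3 of 6 libraries, with Benjamini-Hochberg adjustment and a threshold of 0.05. The alternatives were edgeR 4.0.16 and DESeq2 1.42.0 on recovered reads, other pseudocounts, filters and scalings, array weights, a covariate of Y-linked genes (sex was not labelled) and leaving out each mouse. Scripts were tested on simulated data. Each sample is 1 mouse by its label, and no batch or litter is given.

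Symbols were read as deposited. Sequences came from GENCODE M21 (GRCm38) and RefSeq (GRCm38.p6), a build other than that of the reads, and coordinates were not converted. Genes and lists were chosen with earlier results of these data known. The genes named were Rps27rt and members marked as copies with their parents, Rps19bp1, the 6 lowest p in each direction, the 5 highest means, 17 genes with known roles and 5 neighbours of Rps27rt on each side. One gene of these lists is not reported here.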

Additional observations from a re-analysis of the deposited data

How the results depend on the processing

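No paired analysis was possible because the groups share no mouse numbers. No ribosomal protein gene passed the adjusted threshold under any of the 18 alternatives run, and the lowest adjusted p in them were 0.0721 (DESeq2) and 0.0796 (array weights), both for Rps27rt. Its log2 fold change was 0.84 to 1.11 when 1 mouse was left out, 0.94 to 1.19 under the other alternatives that kept it a single gene, and 0.15 when summed with Rps27. The count at an unadjusted p under 0.05, 2 of 87, was 9 when scaled to reads outside mitochondrial transcripts (against 4.09% of all genes higher), 7 with quantile normalization (1.95%), 4 with edgeR (4.66%), 4 with DESeq2 (5.47%), 47 with array weights (11.5%) and 1 with the Y-linked covariate (1.19%), all of them higher. It was 1 to 10 when 1 mouse was left out, where 0.871% to 5.67% of all genes were higher. The median log2 fold change was 0.16 to 0.33 under other settings and 0.05 to 0.29 when 1 mouse was left out. Scaling to reads outside mitochondrial transcripts moved the median of all genes from -0.02 to 0.09 and that of the ribosomal proteins to 0.29. The count of core genes above every Usp24WT mouse was 11 (against 5.07% of all genes) and 46 without M164 (against 7.79%). Leaving out a mutant mouse can only keep or raise this count, and it was not made without M134 or M145. The choice of M164 was made after seeing the data, and the cause was not tested. Copies with a few counts per library, such as Rpl36al, have wide errors, with an SE of 0.53.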

Other observations

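The 64 pseudogene entries of ribosomal proteins that the symbol rule left out had a larger median log2 fold change than the genes described above. Their sequence overlap with parent genes was not examined. How reads shared with a parent were counted is not given in the sources used here, so their counts are uncertain. Some had few counts, such as Rpl31-ps6 at 2.82 to 15.8. Of the 58 tested, 50 had a log2 fold change above 0, against 48.3% of all genes, with a median of 0.51, and 0.54 without M164. In 12 all Usp24C1695A values lay above all Usp24WT values, against 5.07% of all genes, and in 1 they lay below, against 6.03%. None passed the adjusted threshold in limma. At an unadjusted p under 0.05 in limma, 4 were higher, against 2.61% of all genes, and 1 was lower, against 2.93%. Rpl10a-ps1 was at 183, 250.5 and 153 in Usp24WT and 289, 275 and 399.9 in Usp24C1695A mice, and Rps16-ps2 at 49.9, 86.4 and 56.4 and at 99.3, 120 and 150.5. Together these entries took 0.0250%, 0.0387% and 0.0199% of reads in M1354, M1364 and M1370 and 0.0407%, 0.0397% and 0.0347% in M134, M145 and M164, so M1364 stood near the Usp24C1695A mice.

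Mitochondrial ribosomal proteins are encoded in the nucleus and build the ribosome of the mitochondrion. Of their 77 tested genes, 69 had a log2 fold change above 0, against 48.3% of all genes. The median was 0.25, and 0.15 without M164. In 17 the Usp24C1695A values all lay above the Usp24WT values, against 5.07% of all genes, and in 1 all below, against 6.03%. Their summed normalized count was 19959 to 21546 in Usp24WT mice, 23258 and 22798 in M134 and M145 and 28661 in M164, the reverse of the order in which M164 and M145 stood for the cytosolic set. The 17 transcripts of the mitochondrial genome summed to 2446770 in M164 and to 226372 to 388822 in the other 5 mice.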
